A study of Homo sapiens with 25 samples.

Results

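The NKX2 homeodomain family was followed at 7 human genes: NKX2-1, NKX2-2, NKX2-3, NKX2-4, NKX2-5, NKX2-6 and NKX2-8. The members were taken by name, as the genes of this family, from the 20037 protein-coding genes of the GRCh38.p14 annotation. H1, an established line of human embryonic stem cells, was profiled by chromatin immunoprecipitation with sequencing at 4 stages of a directed differentiation: hESC, the undifferentiated cells, then hDE, definitive endoderm, then hAFE, the endoderm of the anterior foregut, and last hPFE, that of the pharyngeal foregut. All stages share the H1 line, no genetic change is named in the labels, and the sources used here give neither the agents nor the days of each step. The 3 histone marks were H3K27ac, found at active promoters and enhancers, H3K27me3, deposited by Polycomb repressive complex 2, and H3K4me2, found at promoters and enhancers that are active or primed. Each mark had 2 libraries per stage, except that H3K27me3 in hAFE, H3K4me2 in hAFE and H3K4me2 in hPFE had 1 each, which gave 21 libraries with a peak list.

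NKX2 proteins are transcription factors that bind DNA through a homeodomain and carry a conserved motif called the NK2-specific domain. They assign regional identity along the pharynx, thyroid, lung, heart and ventral neural tube. In the embryo, genes of this kind are typically covered by H3K27me3 together with methylated H3K4 until a tissue uses them, a combination called bivalent. The gene table lists NKX4-3, NKX4-1 and NKX4-2 as synonyms of NKX2-3, NKX2-5 and NKX2-6, which are the relatives of Drosophila tinman. The other 4 genes are closer to the Drosophila genes vnd and scarecrow.

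A gene counted as marked where all libraries of the mark and stage held 1 bp or more of a merged peak no farther than 1 kb from one of its annotated ends. With a peak in no library it was unmarked, and with a peak in some it was mixed. Lists held 24871 to 111256 peaks for H3K27ac, 23457 to 76441 for H3K27me3 and 87357 to 116210 for H3K4me2. Sequencing depth is unknown, so a missing peak does not show a missing mark. The 2 shortest H3K27ac lists, with 42100 and 24871 peaks, were those of hAFE, and the shortest H3K27me3 list, with 23457, was the single hAFE library. The hESC libraries of H3K27ac and H3K27me3 were re-analysed from an earlier deposit per their titles, so deposit and stage cannot be told apart wherever hESC is compared for either mark. For H3K27me3, replicate 1 of hESC, of hDE and of hPFE has "millipore" in its file name, whose meaning is not stated. The labels do not say whether replicates were separate cultures. No test between stages was run, since values of different lists have no common scale, and differences are given as calls beside the same calls over all genes. In these bulk samples, more cells carrying a mark and more mark per cell cannot be told apart.

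The stages were checked on H3K27ac at marker genes. All 7 definitive endoderm markers were marked in hDE and all 4 anterior foregut markers in hAFE, and 5 of 6 pluripotency markers were marked in hESC. The lists were not confined to their stages: the pluripotency markers were also marked at 3 genes in hDE, 2 in hAFE and 3 in hPFE, where they included NANOG, CRIPTO and SOX2, and the anterior foregut markers at 1 in hESC, 2 in hDE and 3 in hPFE. The definitive endoderm markers were marked at 0 in hESC, 1 in hAFE and 1 in hPFE. Of the 11 pharyngeal endoderm markers, 5 were marked in hPFE, but 3 of the 11 are NKX2 genes and 2 of the 5 are NKX2-5 and NKX2-6. None of the 3 neural markers was marked at any stage. Among the 5 mesoderm and heart markers, TNNT2 was marked at all 4 stages and TBX6 in hESC, hDE and hPFE. HAND1 and MYH6, a heart myosin gene, had no H3K27ac gene-end peak in any library, and MESP1 had one in hESC replicate 2 and hPFE replicate 1 only.

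At the ends of the NKX2 genes, H3K27ac was found at NKX2-3, NKX2-5 and NKX2-6 and at no other member. It was found in foregut libraries only: none of the 7 genes had an H3K27ac peak at either end in the 4 libraries of hESC and hDE. NKX2-3 was marked in hAFE, and NKX2-5 and NKX2-6 were marked in hPFE. NKX2-1, NKX2-2, NKX2-4 and NKX2-8 had no H3K27ac gene-end peak in any of 8 libraries. The members marked by H3K27ac thus numbered 0 in hESC and 0 in hDE, then 1 in hAFE and 2 in hPFE. Over all protein-coding genes, H3K27ac marked 42.9% in hESC and 54% in hDE, then 34.2% in hAFE and 50.2% in hPFE, so the family lay below the genome at every stage.

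**Figure D1:**
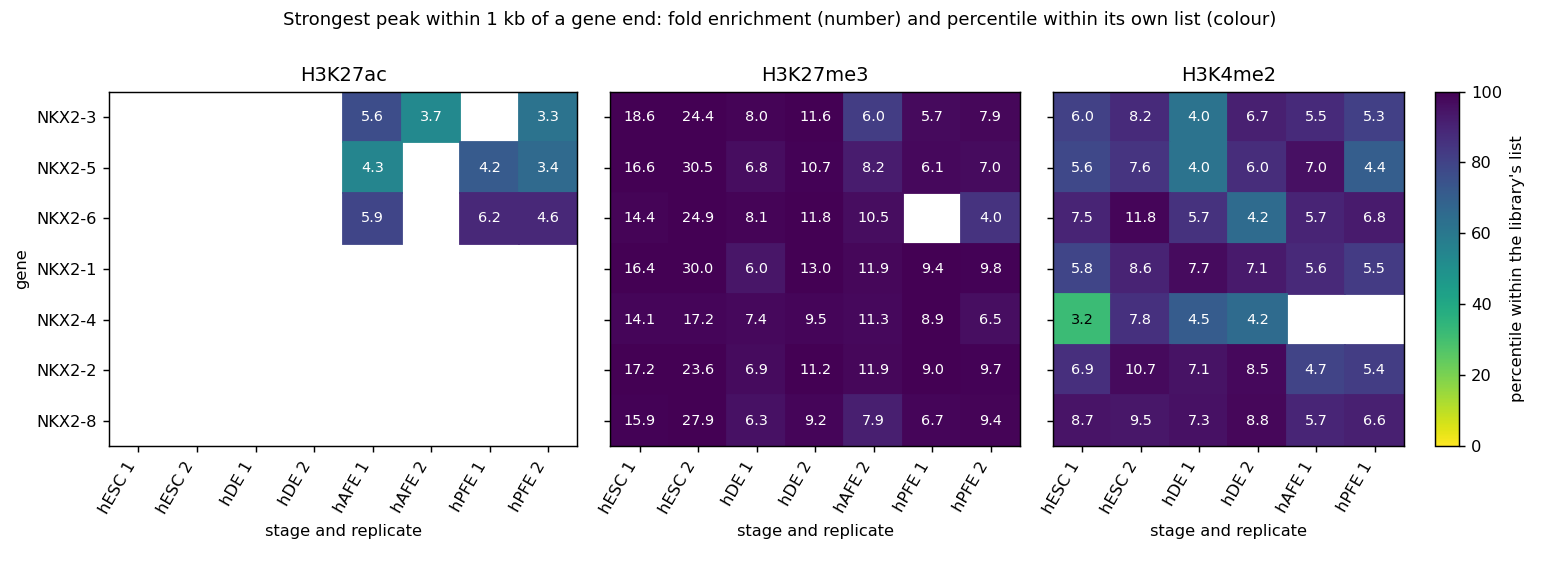
Strongest peak within 1 kb of either end of each NKX2 gene (rows) in each of the 21 libraries (columns, stage and replicate), with 1 panel per mark. The number is the authors' fold enrichment, colour is the percentile of that peak's fold within its own list, and a white cell has no peak. H3K27ac fills 9 cells, all in NKX2-3, NKX2-5 and NKX2-6 of hAFE and hPFE, while H3K27me3 leaves 1 cell white (NKX2-6 in hPFE replicate 1) and H3K4me2 leaves 2 (NKX2-4 in hAFE and hPFE).

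NKX2-3 lies on chromosome 10 (hg38, chr10:99532942-99536524, plus strand in the promoter table). In mouse and zebrafish it is active in pharyngeal endoderm, and in mouse also in gut mesenchyme and spleen. The strongest H3K27ac gene-end peak had a fold enrichment of 5.63 in hAFE replicate 1 and 3.7 in hAFE replicate 2, at percentiles 76.6 and 52.8 of their own lists. In replicate 1 it spanned 1716 bp (chr10:99533619-99535334) and in replicate 2 it spanned 448 bp (chr10:99533784-99534231), inside the wider one. Both lay within the annotated gene, downstream of the start. In hPFE replicate 2 a 463 bp peak with a fold of 3.27 lay past the other end of the gene (chr10:99536872-99537334), and hPFE replicate 1 had none. In hAFE replicate 1, where 6 peaks stood at the gene ends, one of them lay inside that hPFE peak (chr10:99536915-99537323, fold 4.75), while hAFE replicate 2 had none there. NKX2-3 was the only member gained in hAFE against hDE, 1 of 7 that could be gained, where 1.16% of all such genes were gained.

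The 250 bases upstream of the annotated NKX2-3 start had no H3K27ac peak in any library. H3K27me3 covered part of them in both hESC, both hDE, the single hAFE and both hPFE libraries. H3K27ac also lay upstream of this stretch, at -1.15 kb from the gene. Its folds there were 5.94 in hAFE replicate 1 and 2.66 in hPFE replicate 2. The stretch is printed because the strongest H3K27ac gene-end peaks of hAFE lay downstream of it, inside the gene. It is also the one family promoter without a match to any motif searched at a first annotated start (RefSeq, GRCh38.p14, chr10:99532692-99532941, plus strand, 5′ to 3′).
NKX2-3: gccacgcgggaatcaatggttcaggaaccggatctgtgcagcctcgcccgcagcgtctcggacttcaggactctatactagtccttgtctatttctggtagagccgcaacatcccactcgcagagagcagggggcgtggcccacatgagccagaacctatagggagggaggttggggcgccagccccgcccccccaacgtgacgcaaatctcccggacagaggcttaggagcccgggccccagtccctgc
Its GC content was 63.2% with 16 CG dinucleotides, against medians of 62% and 16 over 22199 such stretches of 15843 genes. The motifs were TGTTTAC and TGTTTGC for FOX factors, AGATAA for GATA factors, CACTTNA for NK2 factors, GACCACCCA for GLI factors and CTTTGT for SOX factors, each searched on both strands with overlaps allowed. They occurred in 2.45%, 2.74%, 7.09%, 7.59%, 0.189% and 11.6% of all stretches, in that order. The absence of a match says only that these letters are not in this stretch.

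NKX2-5, a regulator of heart muscle that is also active in mouse pharyngeal endoderm, lies on chromosome 5 (chr5:173232109-173235206). Its H3K27ac gene-end peak had a fold of 4.29 in hAFE replicate 1 and none in hAFE replicate 2. In hPFE the folds were 4.25 in replicate 1 and 3.37 in replicate 2, at percentiles 71.6 and 65.9 of their lists. The peaks were narrow and close to the higher-coordinate end, spanning chr5:173234916-173235155 (240 bp) in hPFE replicate 1, chr5:173234563-173234829 (267 bp) in hPFE replicate 2 and chr5:173234812-173235074 (263 bp) in hAFE replicate 1. The hPFE peaks of the 2 replicates did not overlap each other, although both stood within 1 kb of the same gene end.

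**Figure D2:**
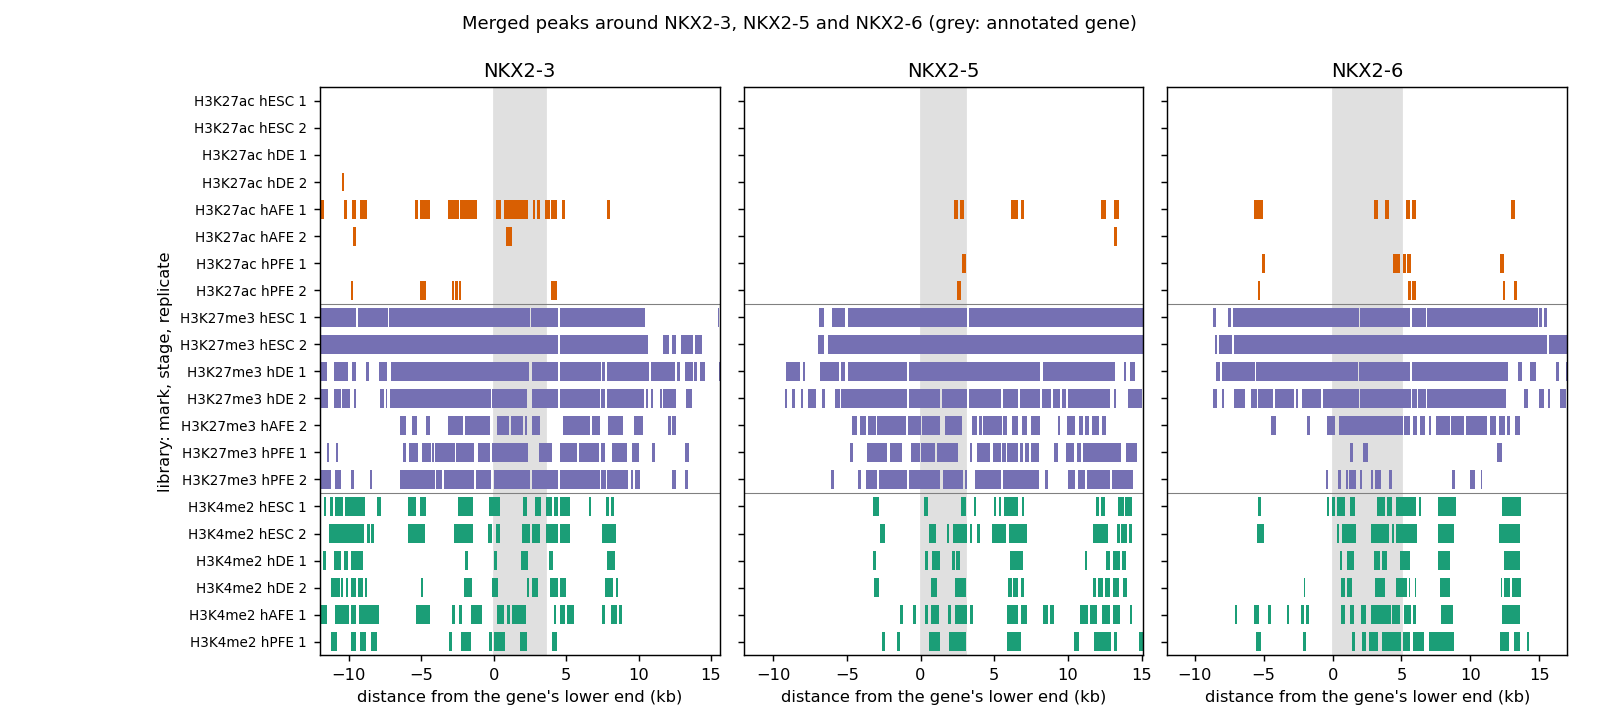
Merged peaks in each of the 21 libraries (rows: mark, stage and replicate) around NKX2-3, NKX2-5 and NKX2-6, by distance in kb from the lower-coordinate end of the gene, with the annotated gene in grey and bars drawn to scale. H3K27ac peaks (orange) at the genes appear in hAFE and hPFE rows, and the H3K27me3 bars (purple), nearly continuous in hESC, are broken in hPFE and reduced to a few short bars on NKX2-6.

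NKX2-6, which in mouse is active in the caudal pharyngeal pouches and the outflow region of the heart, lies on chromosome 8 (chr8:23701740-23706756). The fold of its H3K27ac gene-end peak was 5.93 in hAFE replicate 1, with none in hAFE replicate 2, and 6.19 and 4.64 in hPFE replicates 1 and 2. These hPFE peaks stood at percentiles 89 and 88.7 of their lists. The 276 bp peak of hPFE replicate 1 (chr8:23707161-23707436), the 218 bp peak of hPFE replicate 2 (chr8:23707199-23707416) and the 289 bp peak of hAFE replicate 1 (chr8:23707105-23707393) overlapped, just past the higher-coordinate end of the gene. NKX2-6 was therefore the member with H3K27ac peaks at one common place in 3 libraries.

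NKX2-5 and NKX2-6 were gained in hPFE against hESC, 2 of 7 members that could be gained, where 11.4% of all such genes were gained. No member was gained in hPFE against hAFE, 0 of the 4 that were unmarked in hAFE, where 7.71% of all such genes were gained, because both genes already had a peak in hAFE replicate 1. No member was gained in hDE against hESC, 0 of 7, where 14.6% of all such genes were gained. The 2 mixed calls in hAFE rested on replicate 2, whose list was the shortest of the 8 H3K27ac lists. Without that library all 3 genes counted as marked in hAFE. With peaks limited to a −log10 p of 5 or more, NKX2-6 stayed marked in hPFE and NKX2-5 did not, and NKX2-3 became unmarked in hPFE. With a window of 500 bp, or 200 bp of required overlap, no member was marked in hAFE.

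H3K27me3 marked all 7 genes in hESC, hDE and hAFE and 6 of 7 in hPFE, where NKX2-6 was mixed. Over all protein-coding genes, it marked 19.2% in hESC and 13.4% in hDE, then 15.5% in hAFE and 12.7% in hPFE. The family was held almost whole by a mark that most genes lacked. In hESC the strongest gene-end H3K27me3 peaks of the 7 genes stood at percentiles 98.7 to 100 of their lists, with folds of 14.1 to 18.6 in replicate 1 and 17.2 to 30.5 in replicate 2. These were broad domains: the widest peak touching a gene spanned 5340 bp at NKX2-4 to 14065 bp at NKX2-5 in hESC replicate 1, and 8101 bp at NKX2-1 to 23656 bp at NKX2-5 in hESC replicate 2.

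How much of each gene H3K27me3 covered set NKX2-6 in hPFE apart from all other members. The values of NKX2-3 and NKX2-5 overlapped those of the other 4 genes in hPFE. In the single hAFE library these 2 genes had the lowest cover of the family. The measure was the percent of the gene with 1 kb either side that lay in merged peaks. NKX2-6 had 96.8% and 100% in hESC, 97% and 95.5% in hDE, 83.6% in the single hAFE library, and 7.85% and 29.9% in hPFE. Both hPFE values lay below every earlier value of NKX2-6 and below every value of every other member. NKX2-5 had 97.4% and 100% in hESC, 96.6% and 92.8% in hDE, 73.3% in hAFE, and 65% and 79.4% in hPFE, so its foregut values lay below all 4 earlier ones. NKX2-3 had 95.1% and 97.4% in hESC, 93% and 89.4% in hDE, 54.8% in hAFE, and 73.9% and 92.4% in hPFE, where the second hPFE library overlapped the hDE values. The hPFE lists were the longest H3K27me3 lists, with 76441 and 66283 peaks, whereas the hAFE list was the shortest.

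The other 4 genes stayed covered. NKX2-1, the thyroid, lung and ventral forebrain regulator, had 94.3% and 96% in hESC, 82.2% and 76.3% in hDE, 94.9% in hAFE, and 90.8% and 97.6% in hPFE. NKX2-2, which acts in the ventral neural tube and pancreatic islets, had 86.5% and 87.3% in hESC, 79% and 78.4% in hDE, 92.9% in hAFE, and 93.2% and 97.3% in hPFE. For both genes the foregut values lay above the hDE values. NKX2-4 had 95.5% and 100% in hESC, 78.8% and 82.5% in hDE, 97.7% in hAFE, and 74.4% and 100% in hPFE. NKX2-8 had 98.2% and 100% in hESC, 71.5% and 72.8% in hDE, 75.7% in hAFE, and 81.8% and 94.1% in hPFE. In hDE the tinman relatives were therefore the more fully covered genes, with 89.4% to 97% against 71.5% to 82.5% for the other 4. At the foregut stages the ranges overlapped: 54.8% to 83.6% against 75.7% to 97.7% in hAFE, and 7.85% to 92.4% against 74.4% to 100% in hPFE. The overlap in hAFE came from NKX2-6 alone.

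**Figure D3:**
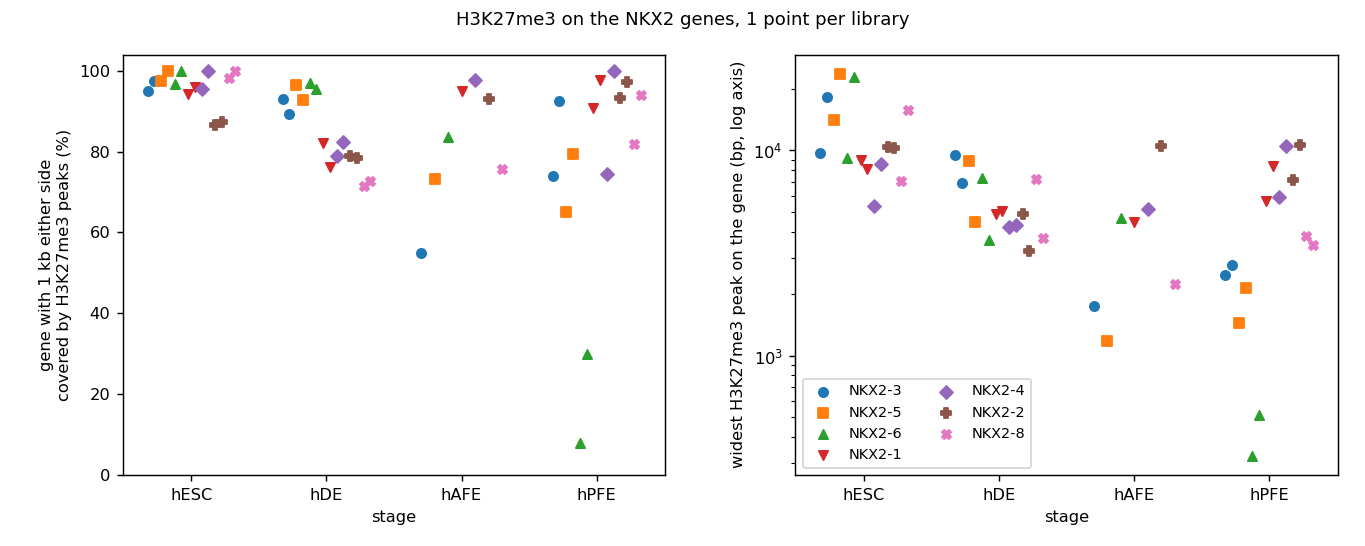
H3K27me3 on the 7 NKX2 genes by stage, 1 point per library: at left the percent of the gene with 1 kb either side that lies in merged peaks, at right the width in bp of the widest peak touching it (log axis). In hPFE NKX2-6 sits at 7.85% and 29.9%, below all other points, and the widest peaks of NKX2-3, NKX2-5 and NKX2-6 all lie below those of the other 4 genes.

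The width of the widest peak gave the clearer separation in hPFE. The widest H3K27me3 peak on NKX2-6 was 324 and 511 bp in hPFE, against 9144 and 22739 bp in hESC. On NKX2-5 it was 1437 and 2128 bp in hPFE, against 14065 and 23656 bp in hESC. On NKX2-3 it was 2472 and 2753 bp in hPFE, against 9715 and 18253 bp in hESC. At the stages between, NKX2-6 had 7354 and 3672 bp in hDE and 4671 bp in hAFE. NKX2-5 had 8893 and 4475 bp in hDE and 1180 bp in hAFE. NKX2-3 had 9491 and 6972 bp in hDE and 1746 bp in hAFE. The other 4 genes had widest peaks of 3451 to 10651 bp in hPFE, so the 2 groups of genes did not overlap there. In hAFE they did, with 2221 bp on NKX2-8. A domain called as several peaks has a narrow widest peak: NKX2-3 had 2753 bp in hPFE replicate 2 at 92.4% cover. The split by ancestry was noticed after the values were seen. NKX2-8 shared part of the pattern, with 3822 and 3451 bp in hPFE, against 7096 and 15681 bp in hESC. Over the 3850 genes marked by H3K27me3 in hESC, the median widest peak was 363 and 538 bp in hPFE, against 1070 and 1594 bp in hESC. Those genes were selected on hESC, which by itself lowers their values at other stages, so nothing is read from that difference. The medians over the 7 members were 3822 and 3451 bp in hPFE, against 9144 and 15681 bp in hESC. Median cover of those 3850 genes was 1.14% and 1.66% in hPFE, against 3.49% and 5.68% in hESC. A peak of a given width covers a smaller percent of a longer gene. The members are 2162 to 11673 bp long and gene length was not matched, so these medians are no scale for the members.

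The share of H3K27ac bases that also lay in H3K27me3 peaks differed between genes and stages. This share depends on how much of the gene H3K27me3 covered, and no expected value was computed. Of the bases within 1 kb of NKX2-6 that lay in H3K27ac peaks of hPFE, 965 bp in replicate 1 and 462 bp in replicate 2, none lay in an H3K27me3 peak of hPFE. In hAFE, where only replicate 1 had H3K27ac on NKX2-6, 93.2% of its 1111 bp lay in H3K27me3 peaks. On NKX2-5 in hPFE, 42.9% of 240 bp in replicate 1 and 100% of 267 bp in replicate 2 lay under H3K27me3 of the stage. In hAFE replicate 1, 69.7% of 567 bp on NKX2-5 did. On NKX2-3, 63% of 3095 bp in hAFE replicate 1 and 65.8% of 448 bp in hAFE replicate 2 did, and 100% of 463 bp in hPFE replicate 2. Both marks at once were called at 1 member in hAFE, NKX2-3, and at 1 in hPFE, NKX2-5. Over all genes this pair was called at 2.78% in hESC and 2.17% in hDE, then 0.804% in hAFE and 1.21% in hPFE, and at no member in hESC or hDE. Whether both marks sat on the same chromosomes or in different cells of a culture was not tested.

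H3K4me2 marked all 7 genes in hESC and hDE and 6 of 7 in hAFE and hPFE. It marked 72.3% of all genes in hESC and 68% in hDE, then 70.2% in hAFE and 70.1% in hPFE, so these counts stand close to a high background. H3K4me2 and H3K27me3 were both called at 7 members in hESC and 7 in hDE, then 6 in hAFE and 5 in hPFE. Over all genes the pair was called at 18.5%, 11.6%, 13.2% and 10.3% at the same stages. The member missing in hAFE was NKX2-4. Those missing in hPFE were NKX2-4, which had no H3K4me2 gene-end peak, and NKX2-6, whose H3K27me3 was mixed. Each mark was called separately near either end of a gene, so the marks of a pair could lie at different places. Whether they sat on the same chromosomes or in different cells of a culture was not tested, so these calls do not establish the bivalent combination.

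NKX2-4, the closest relative of NKX2-1 and a gene of the mouse hypothalamus, lies on chromosome 20 (chr20:21395365-21397526, minus strand). Its strongest H3K4me2 gene-end peak had folds of 3.21 and 7.81 in hESC and 4.46 and 4.17 in hDE. No gene-end peak was found in hAFE or hPFE, where the nearest H3K4me2 peaks lay at -3272 bp and -3151 bp from the gene. The hDE peaks were 212 and 123 bp wide and covered 5.09% and 2.96% of the gene with 1 kb either side. NKX2-4 was lost in hAFE against hDE, 1 of 7 members, where 3.23% of all genes marked in hDE were lost, and in hPFE against hESC, 1 of 7, where 6.18% of all genes marked in hESC were lost. The second loss was no longer called with peaks limited to a −log10 p of 5 or more, or a −log10 q of 2 or more, because the peak of hESC replicate 1 had a −log10 p of 3.64. The other 6 genes kept H3K4me2 gene-end peaks in all 6 libraries. Cover differed most between stages at NKX2-2, with 56.2% and 68% in hESC, 57.7% and 53.5% in hDE, 13.1% in hAFE and 13.6% in hPFE.

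NKX2-1 and NKX2-4 share the longest run of identical bases among the family promoters, and the 2 stretches are printed with that run in capitals (RefSeq, GRCh38.p14, minus strand, 5′ to 3′, 250 bases before the start). The NKX2-1 stretch belongs to the second of its 2 annotated starts (chr14:36519557-36519806), which lies inside the longer gene, and the NKX2-4 stretch lies at chr20:21397527-21397776.
NKX2-1: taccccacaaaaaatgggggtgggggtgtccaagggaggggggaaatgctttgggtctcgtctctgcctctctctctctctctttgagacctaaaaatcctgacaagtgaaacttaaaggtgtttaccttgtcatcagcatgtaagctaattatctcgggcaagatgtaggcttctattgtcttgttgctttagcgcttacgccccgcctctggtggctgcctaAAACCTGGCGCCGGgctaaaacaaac
NKX2-4: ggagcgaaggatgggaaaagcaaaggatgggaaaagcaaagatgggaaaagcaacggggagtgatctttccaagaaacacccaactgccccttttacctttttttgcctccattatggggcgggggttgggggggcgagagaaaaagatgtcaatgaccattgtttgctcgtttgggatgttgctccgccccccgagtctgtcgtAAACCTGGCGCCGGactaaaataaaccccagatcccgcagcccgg
The shared run of 14 bases begins at position -26 from the NKX2-1 start and at -45 from the NKX2-4 start, and it occurred in 2 of 22199 stretches, these 2. The FOX motif TGTTTAC began at -130 in the NKX2-1 stretch, and TGTTTGC began at -89 in the NKX2-4 stretch. TGTTTGC also began at -241 before the first NKX2-1 start and at -216 before the first NKX2-2 start. A FOX motif was thus in 4 of 7 family stretches, with 5.09% of all stretches holding one. These 4 belong to NKX2-1, counted at both of its starts, NKX2-2 and NKX2-4, so no enrichment is read from the count. The NK2, GLI and SOX motifs matched in no family stretch. AGATAA was found on the opposite strand of the NKX2-1 stretch at -100 and upstream of NKX2-8 at -166. These are matches of letters, not shown to be sites. H3K4me2 overlapped the NKX2-1 stretch in both hESC, both hDE, the hAFE and the hPFE libraries, and the NKX2-4 stretch in 1 of 2 hESC libraries and in none later. None of the 7 stretches, which belong to 5 members, was overlapped by H3K27ac at any stage. No stretch was read for the 2 members marked by H3K27ac in hPFE, so this absence says nothing about their promoters. Among the members read, NKX2-1, NKX2-2, NKX2-4 and NKX2-8 had no H3K27ac gene-end peak in any library.

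**Figure D4:**
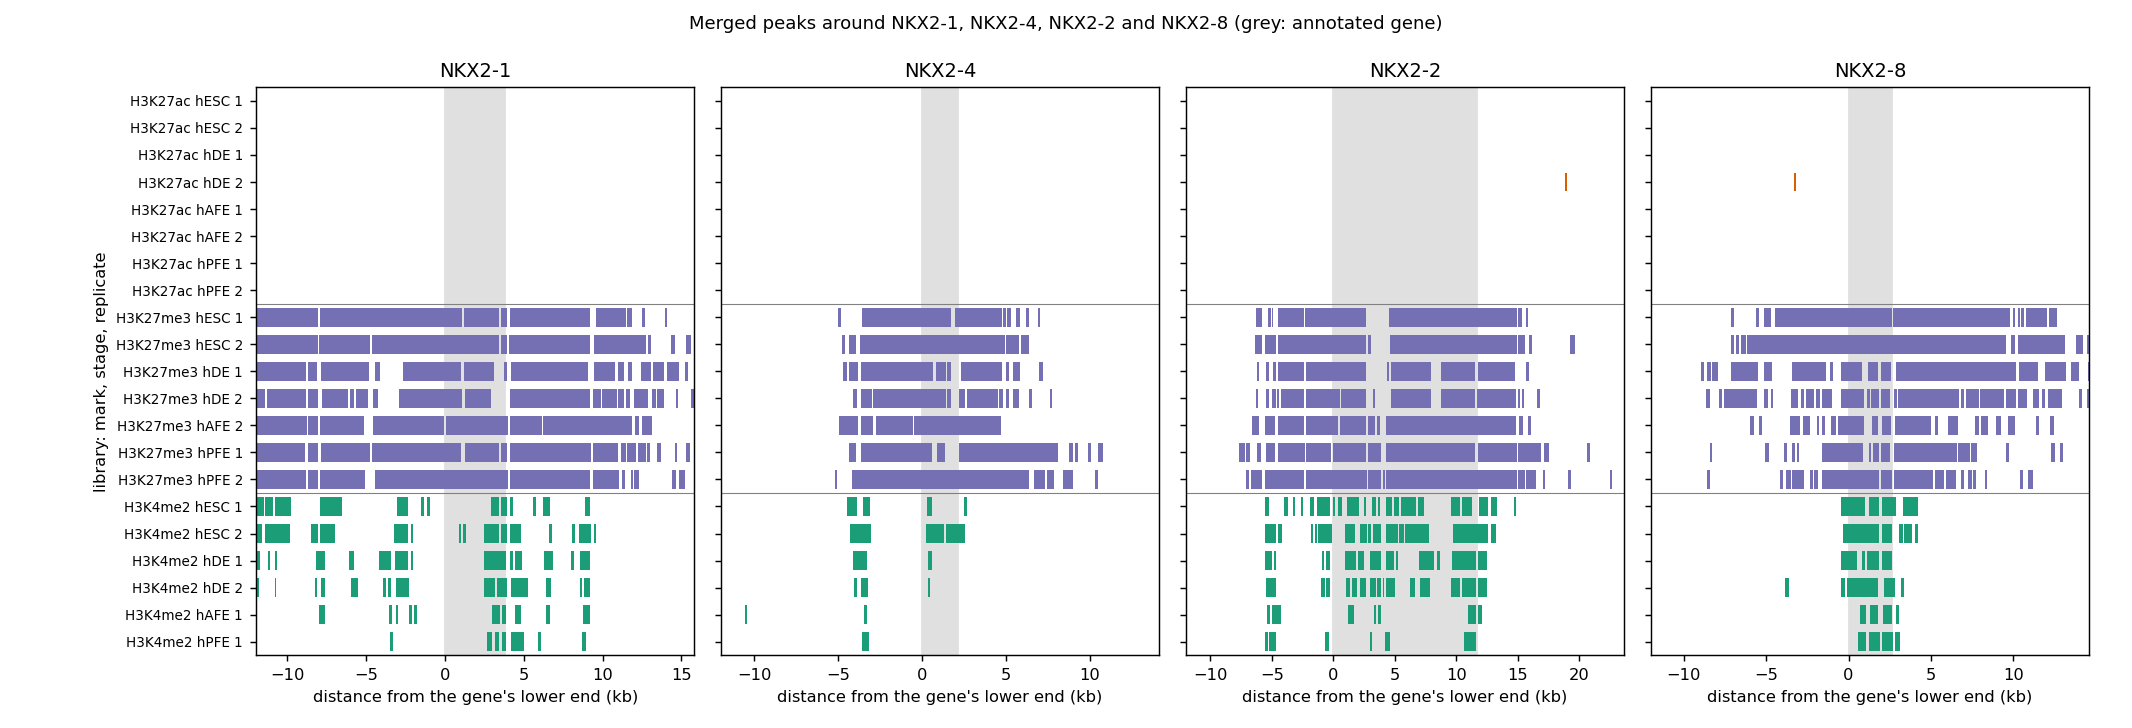
Merged peaks in each of the 21 libraries (rows: mark, stage and replicate) around NKX2-1, NKX2-4, NKX2-2 and NKX2-8, by distance in kb from the lower-coordinate end of the gene, with the annotated gene in grey and bars drawn to scale. No H3K27ac bar touches any of the 4 genes, H3K27me3 (purple) spans them at all 4 stages, and no H3K4me2 bar (green) touches NKX2-4 in hAFE or hPFE.

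NKX2-1 (chr14:36516397-36520232) and NKX2-8 (chr14:36580004-36582614), a gene of the ventral neural tube and lung in mouse, are neighbours separated by 59772 bp. NKX2-4 and NKX2-2 (chr20:21511017-21522689) are separated by 113491 bp. Both pairs therefore share part of their 100 kb surroundings, and H3K27me3 and H3K4me2 regions there were counted for each. NKX2-1 had H3K4me2 at its ends in all 6 libraries, with folds of 5.79 and 8.56 in hESC, 7.7 and 7.09 in hDE, 5.64 in hAFE and 5.46 in hPFE. NKX2-8 had folds of 8.7 and 9.5 in hESC, 7.29 and 8.75 in hDE, 5.71 in hAFE and 6.61 in hPFE. Folds of different lists have no common scale, so no order between stages is read from them.

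Beyond the gene ends, H3K27ac regions were listed up to 100 kb away and counted where every library of a stage had them. The 7 genes had 8 such regions in hESC and 17 in hDE, then 11 in hAFE and 15 in hPFE, and no region was counted for more than 1 member. With 50 kb the counts were 0, 5, 3 and 4, so most regions lay in the outer part of the surroundings, where other genes also lie. NKX2-2 had none within 100 kb at any stage. Distances are given from the nearest gene end, negative toward lower coordinates.

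**Figure D5:**
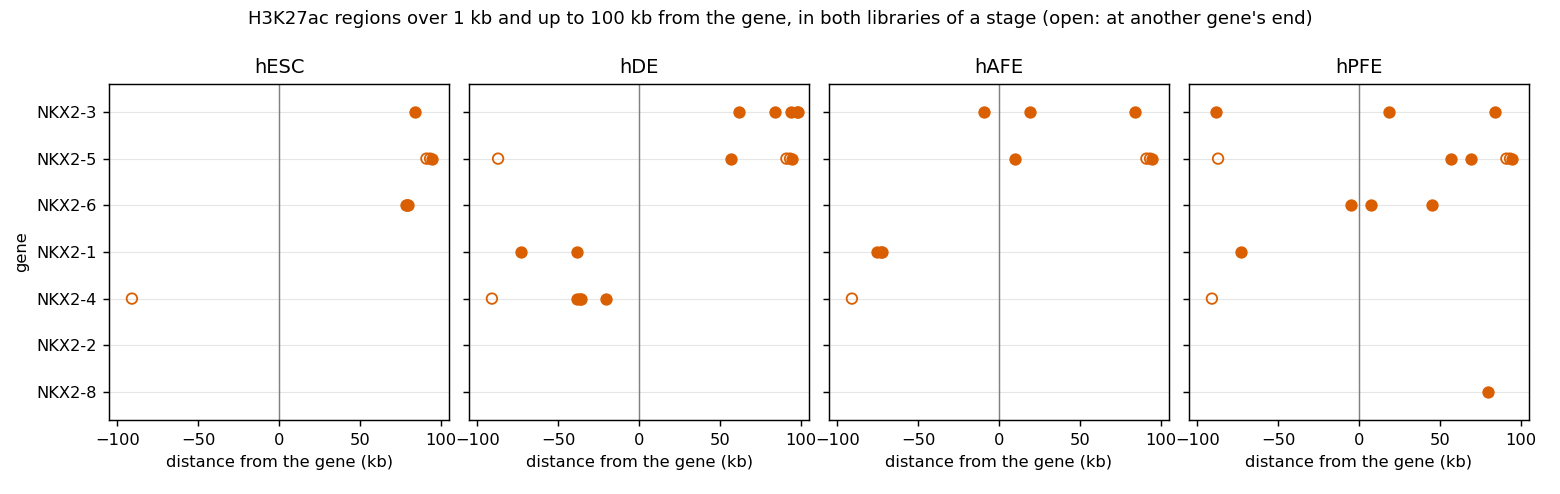
H3K27ac regions over 1 kb and up to 100 kb from each NKX2 gene, present in both libraries of the stage named above each panel, by distance in kb from the nearest gene end (negative toward lower coordinates, not to be read as upstream). Open circles overlap an end of another protein-coding gene. The number of circles is 8 in hESC and 17 in hDE, then 11 in hAFE and 15 in hPFE, and NKX2-6 has its hESC circles near 79 kb and its hPFE circles at -4.93, 7.14 and 45.2 kb.

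Among the regions without a peak in either hESC library, the one found in the most differentiated libraries, 6 of 6, lay at -72.8 kb from NKX2-1 (chr14:36442570-36443550). It had H3K27ac folds of 3.32 and 2.81 in hDE, 3.95 and 3.85 in hAFE, and 4.56 and 2.74 in hPFE. At the stage where it ranked highest, the lower of its 2 library percentiles was 45.3. H3K4me2 was there in every library of every stage, hESC included. H3K27me3 was there in 1 of 2 hESC libraries and in none of the later ones. Further regions of NKX2-1 were at -38.3 kb in hDE (chr14:36477577-36478053), with folds of 4.03 and 3.78, and at -72.2 and -75.3 kb in hAFE. Distance alone does not tie a region to a gene, and no contact data were used here.

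NKX2-3 had 1 region in hESC and 5 in hDE, then 3 in hAFE and 3 in hPFE. The one nearest to it lay at -9.5 kb (chr10:99523092-99523445), with folds of 5.38 and 3.33 in hAFE, and 2.71 in hPFE replicate 2. The lower of its 2 hAFE percentiles was 37.7. H3K27me3 covered part of that region in both hESC libraries, both hDE libraries and 1 of 2 hPFE libraries, but not in the hAFE library, so H3K27ac stood where H3K27me3 was not found at the same stage. A region at 84.3 kb, inside SLC25A28, was present in all 8 libraries with folds of 4.48 to 8.31. A region at 97.9 kb, also inside SLC25A28, had folds of 3.37 and 4.58 and was present in hDE only.

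NKX2-5 had 3 regions in hESC and 5 in hDE, then 4 in hAFE and 6 in hPFE. The 3 present at all stages, at 91.2, 93.4 and 94.6 kb, lay at or beside STC2, a secreted glycoprotein gene, and regions at -87.1 kb in hDE and hPFE lay at BNIP1. A region at 56.6 kb (chr5:173291793-173293055) had folds of 6.92 and 7.38 in hDE and 5.97 and 3.88 in hPFE, with 4.28 in hESC replicate 1 and none in hAFE. The nearest region, at 10 kb (chr5:173245226-173245536), was found in hAFE only, with folds of 4.24 and 3.9. H3K27me3 peaks overlapped it, in hDE only in part, in both libraries of hESC, hDE and hPFE, and no such peak overlapped it in the hAFE library. The same arrangement was thus seen at the nearest region of NKX2-5 and of NKX2-3 found in both hAFE libraries. Each case rested on a single H3K27me3 list that was the shortest of its mark. Nearer regions found in hAFE replicate 1 but not replicate 2 mostly differed. Those at 3.06, 3.73 and 9.14 kb from NKX2-5 overlapped H3K27me3 of hAFE. So did those at -1.15, 1.16, -2.42, 4.25, -4.38 and -5.2 kb from NKX2-3, and the one at -8.77 kb did not.

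NKX2-6 had 3 regions in hESC and 0 in hDE, then 0 in hAFE and 3 in hPFE, and no region was common to both stages. The hESC trio began at 78.3, 79.1 and 79.8 kb from the gene, with folds of 4.52 to 6.91. The hPFE regions lay at 45.2 kb, with folds of 3.93 and 4.29, at -4.93 kb, with folds of 3.25 and 2.75, and at 7.14 kb, with folds of 2.58 and 3.72. The lower of their 2 library percentiles was 64.4, 29.6 and 6.53, in that order, so the nearest regions ranked low in a list. The region at -4.93 kb overlapped H3K27me3 peaks in both hESC and both hDE libraries and in no hAFE or hPFE library. The region at 7.14 kb overlapped H3K27me3 peaks in both hESC, both hDE and the hAFE libraries and in 1 of 2 hPFE libraries. H3K27me3 around NKX2-6 was sparse in hPFE but not absent: cover of the gene with 10 kb either side was 3.82% and 11% in hPFE, against 89.1% and 93.1% in hESC.

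NKX2-4 had 1 region present at all stages, at the far end of XRN2, a ubiquitous exonuclease gene, with folds of 4.57 to 20, and 4 more in hDE, all inside XRN2. NKX2-8 had 1 region, in hPFE, at 79.6 kb (chr14:36662234-36664528), with folds of 10.3 and 2.92, and 3.88 in hAFE replicate 1. It lies in the body of PAX9, a regulator of the pharyngeal pouches and thymus, 74954 bp from NKX2-8. PAX9 itself was unmarked by H3K27me3 in hPFE and marked at the 3 earlier stages, and its gene ends had H3K27ac in hPFE replicate 1 alone, with a fold of 7.06. NKX2-8, by contrast, was marked by H3K27me3 in both hPFE libraries, with folds of 6.67 and 9.39.

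Genes known to act with NKX2 factors, 18 in all, were marked by H3K27ac at 2 in hESC and 6 in hDE, then 4 in hAFE and 7 in hPFE, and by H3K27me3 at 15, 13, 13 and 10. HHEX, GATA4 and GATA6 were marked by H3K27ac in hDE, before any NKX2 gene had a peak. ISL1, a LIM homeodomain factor of foregut and heart progenitors, had H3K27ac at both foregut stages, with folds of 6.59 and 3.89 in hAFE and 7.15 and 5.8 in hPFE and none before, and with H3K27me3 at its ends in hESC and hDE only. FOXE1, a thyroid and pharynx factor, was marked by H3K27ac in hPFE alone, with folds of 12.1 and 3.94, and SHH, a secreted ligand, was marked by it in hPFE, with folds of 8.77 and 4.68, after a peak in hDE replicate 2 with a fold of 2.61. PAX8, the thyroid partner of NKX2-1, and TBX5, the heart partner of NKX2-5, were unmarked by H3K27ac at all stages. Of the 7 other NKX genes, only NKX1-2 was marked by H3K27ac, in hESC, with folds of 3.21 and 3.7. Their H3K27me3 counts were 7, 7, 6 and 6, so NKX2-3, NKX2-5 and NKX2-6 were the NKX genes with a foregut H3K27ac peak among the 14 examined.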

How the data were processed

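The authors called peaks separately in each library against the input of its stage, with a p-value threshold of 0.01, per the deposited file names. Coordinates are hg38, per the submitters' processing notes. The sources used here name no aligner or peak caller. Each deposited peak carries the authors' score, their fold enrichment (a ratio over control) and their −log10 p and −log10 q. These values describe, rank or filter peaks within a list and were not compared between lists.

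Overlapping peaks were merged within a library. Genes came from the RefSeq table of GRCh38.p14, which gives no strand. Promoter stretches, read for 5 of 7 members, and strands came from RefSeq. The strongest peak is the gene-end peak of highest fold. Calls were checked on simulated peaks. Python 3.11.15, numpy 2.4.6, pandas 2.3.3 and matplotlib 3.10.9 were used.

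The members and lists were chosen with earlier results of these data known. All 7 members, their neighbours, the listed genes, up to 3 distal regions per member by percentile, and the 2 genes nearest in pattern were set by a written rule. Regions named beyond 3 were chosen after their values were seen. Alternatives were other windows, distances, overlaps, thresholds, list lengths, the annotated start alone, and leaving out each library.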

Additional observations from a re-analysis of the deposited data

How the results depend on the processing

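Of 276 alternatives over 51 results, 226 left the count or cover in place and 50 moved it. H3K27ac at gene ends, called at 1 member in hAFE, was called at 0 with 500 bp windows and 0 with 200 bp of overlap, and at 1 to 3 when a library was left out. In hPFE the 2 members became 1 with a −log10 p of 5 or more or lists of equal length. The annotated start alone covers 5 members and leaves out NKX2-5 and NKX2-6. Its count of 0 in hPFE was therefore fixed for these 2 genes and says nothing about them. The gain in hAFE against hDE became 0 under the same window and overlap and 1 to 3 with a library left out. The gain in hPFE against hESC became 1 with the stricter p or equal lengths, and its 0 at the start alone was fixed in the same way. The gain in hPFE against hAFE ranged from 0 to 2, and the loss from 0 to 1, with a library left out; the loss was 1, NKX2-3, at the start alone, with the stricter p and with equal lengths. H3K27me3 was lost at 0 to 1 member, NKX2-6, in hPFE against hAFE and against hESC with a library left out. H3K4me2 at the start alone marked 4 members in hDE, with 1 lost there against hESC and 0 lost in hAFE against hDE. That last loss was also 0 with 200 bp of overlap, and the loss in hPFE against hESC was 0 with a −log10 p of 5 or more or a −log10 q of 2 or more.

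Distal H3K27ac regions numbered 0, 5, 3 and 4 within 50 kb and 17, 52, 19 and 29 within 200 kb in hESC, hDE, hAFE and hPFE. With the stricter p they numbered 8 in hDE and 4 in hAFE, 6 in hPFE, and with equal lengths 5 in hESC, 7 in hDE and 5 in hPFE. With a library left out they ranged from 15 to 19 in hESC and 26 to 32 in hDE, then 15 to 35 in hAFE and 40 to 42 in hPFE, where a single list must carry a region. The larger number in hDE than in hPFE turned round with a library left out. The H3K27me3 cover alternatives were added after the data were seen; mean cover of NKX2-6 in hPFE was 18.9%, and 7.55% with the stricter p. No paired analysis was possible because the results are counts of calls and positions of peaks that come from no test.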

Other observations

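The genes whose pattern over the 21 libraries came nearest to each member were set by the mean absolute difference in the percentile of the strongest gene-end peak, taken as 0 where there was none. The lists share their inputs and lengths, so this is a description and says nothing of shared function. NKX2-1 was nearest to ERFL (0.987 percentile points) and VAX2 (1.43), a homeobox gene of the eye. NKX2-2 was nearest to POU3F2 (0.812), a neural factor, and LGI3 (1.25). NKX2-8 was nearest to MCOLN2 (1.21) and NKX6-1 (1.29). The genes nearest to NKX2-4, which had no H3K4me2 gene-end peak in hAFE or hPFE, were ABR (1.96) and HOXC10 (2.79). The 3 genes with foregut H3K27ac had no neighbour as close: NKX2-3 was nearest to VGLL2 (7.34) and LRRIQ1 (9.54), NKX2-5 to GATA3 (8.4) and SIX2 (8.5), and NKX2-6 to DPYSL5 (8.88) and FOXE1 (10.4). Genes without any H3K27ac peak differ by 0 from each other in all 8 H3K27ac libraries, so part of this contrast is built into the measure. VGLL2 had a call in the same 21 of 21 libraries as NKX2-3. Within the family, NKX2-1 and NKX2-2 were nearest, at 1.58, and NKX2-4 and NKX2-6 farthest, at 30.5.

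The nearest genes on either side of the members often differed from them. MBIP and GOT1 were marked by H3K27ac and unmarked by H3K27me3 at all 4 stages, 195760 bp from NKX2-1 and 102318 bp from NKX2-3. STC2 had the same calls 79517 bp from NKX2-5. PAX1, 182975 bp from NKX2-2, was marked by H3K27me3 at all 4 stages and had H3K27ac at its ends in hPFE replicate 1 alone, with a fold of 8.84.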
